A study of Mus musculus with 8 samples.

Results

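Iron homeostasis in cells is set by a small group of genes, and 7 of them are described here in fat that lacks HuR in adipocytes. They are Fth1 and Ftl1, which encode the heavy and light chains of ferritin, Tfrc and Trf, which encode the transferrin receptor and its ligand transferrin, Aco1 and Ireb2, which encode the iron regulatory proteins IRP1 and IRP2, and Hmox1, which encodes the inducible haem oxygenase. They were chosen by name, and all 7 names were found among the 8562 genes of the table. The epididymal white fat (eWAT) of male mice was taken at 6 weeks, the mice being either AdipoQ-Cre;HuRf/f (HuR-FKO) or littermate HuRf/f without the Cre (Ctrl), so that both genotypes carried the floxed HuR alleles. The adiponectin promoter drives this Cre in adipocytes, and other cells of the tissue keep HuR. Tissue from 3 mice was pooled for each replicate. Each genotype had 2 pools, and each pool was divided to give one mRNA library and one library of ribosome-protected fragments (RPF), 8 libraries in 4 groups of 2.

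Ferritin stores iron in a shell of heavy and light chains, and the heavy chain oxidises the iron as it enters. Transferrin carries iron in the blood and the transferrin receptor takes it into the cell. When iron is scarce, IRP1 and IRP2 bind a stem-loop called the iron-responsive element (IRE). Binding to an IRE in the 5′ UTR, as in both ferritin mRNAs, blocks translation, and binding to the IREs in the 3′ UTR of Tfrc protects that mRNA from decay. IRP1 is also the cytosolic aconitase when it holds an iron-sulfur cluster, whereas IRP2 is removed by degradation in iron-rich cells. Haem oxygenase releases iron from haem, and Hmox1 transcription is repressed by BACH1 and activated by NRF2. Ribosome profiling next to mRNA-seq gives, for each gene, how many ribosome footprints are carried per mRNA, which is the step that the 5′ IRE acts on.

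The IREs are shown first, because they separate the members that are governed at translation from the one governed at mRNA decay. They were searched on the sense strand of GENCODE M21 transcripts (GRCm38) as an unpaired C, 5 bases, the 6-base loop CAGTGN with a last base other than G, and 5 bases that pair with the first 5, G-U pairs allowed. In the lines below the unpaired C and the loop are in capitals, and each line runs 5′ to 3′ with T for U. The Fth1 site lies in the 5′ UTR at chr19:9982733-9982759 on the plus strand. The Ftl1 site lies in the 5′ UTR at chr7:45459780-45459806 on the minus strand. The 4 Tfrc sites lie in its 3′ UTR on the plus strand, at chr16:32631220-32631246, chr16:32631599-32631625, chr16:32631664-32631690 and chr16:32631711-32631737. The last line, Slc40a1, the iron exporter ferroportin, at chr1:45925466-45925492 on the minus strand, is shown because its 5′ UTR site is compared with the ferritins below.
Fth1: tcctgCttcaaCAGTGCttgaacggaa
Ftl1: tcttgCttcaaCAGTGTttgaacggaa
Tfrc, site A: attatCggaagCAGTGCcttccataat
Tfrc, site B: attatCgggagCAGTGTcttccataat
Tfrc, site C: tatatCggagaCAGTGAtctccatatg
Tfrc, site D: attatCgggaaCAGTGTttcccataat
Slc40a1: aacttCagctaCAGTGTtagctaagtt

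The ferritin sites differ at 2 of 27 positions. The motif was present in the 5′ UTR of 13 of 7872 genes with one (0.165%) and in the 3′ UTR of 44 of 7897 (0.557%), so it is rare in this table. No match was found in the annotated transcripts of Trf, Aco1, Ireb2 or Hmox1, which says only that these letters are not in those transcripts. The search also gave no site for Slc11a2, Epas1 or Cdc42bpa, which are among the other mRNAs known to carry an IRE. It therefore does not find every IRE. By the same annotation the genes lie at chr19:9980598-9985098 (Fth1), chr7:45457944-45459884 (Ftl1), chr16:32608920-32632794 (Tfrc), chr9:103204001-103230444 (Trf), chr4:40143081-40198338 (Aco1), chr9:54863789-54912530 (Ireb2) and chr8:75093621-75100589 (Hmox1).

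All 8 adipocyte markers were in the table. None was called higher in mRNA (7.50% of all genes were) and 1 was called lower (6.54% of all genes). This was Lep, which encodes leptin (log2 difference -0.70, limma, adjusted p = 0.00406), and the median mRNA difference of the 8 was 0.00. Their summed mRNA level was 59973 to 61384 RPKM in Ctrl against 71091 to 73846 RPKM in HuR-FKO (RPKM, coding reads divided by gene length and library size), most of it from Fabp4 and Cfd. Markers of lymphocytes (4) and of epididymis epithelium (4) were all absent from the table, which lists no value of 1 RPKM or less. Coding reads, recovered from the RPKM values, ranged from 5223721 to 8060054 in the mRNA libraries and from 531966 to 1311977 in the RPF libraries, so the RPF values of low genes are the least precise. The deleted gene, Elavl1, had 40.8 and 49.8 RPKM in the Ctrl mRNA libraries and 41.6 and 43.3 RPKM in those labelled HuR-FKO. Its RPF values were 64.6 and 81.8 RPKM in Ctrl against 56.0 and 63.3 RPKM in HuR-FKO. These were lower without overlap, as in 24.1% of all genes, and not called (log2 difference -0.28 ± 0.20, SE, limma, adjusted p = 0.668). The mRNA values overlap and limma gave no call (log2 difference -0.08 ± 0.13, SE, adjusted p = 0.695), so in this mixed tissue Elavl1 did not check the genotype labels, which are used as given.

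The ferritins and transferrin were among the most abundant mRNAs of the tissue. By mean mRNA level in Ctrl, Fth1 ranked 13, Trf 16 and Ftl1 30 of 8562 genes. Aco1 ranked 1013, Hmox1 3023, Ireb2 6036 and Tfrc 7467, which puts the receptor mRNA close to the bottom of the genes listed and its ligand close to the top. The levels of Fth1 and Trf overlapped in the Ctrl libraries of each kind. Ftl1 was below both in all 8 libraries. Ireb2 was above Tfrc in all 4 mRNA libraries, whereas their RPF ranges overlapped.

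**Figure D1:**
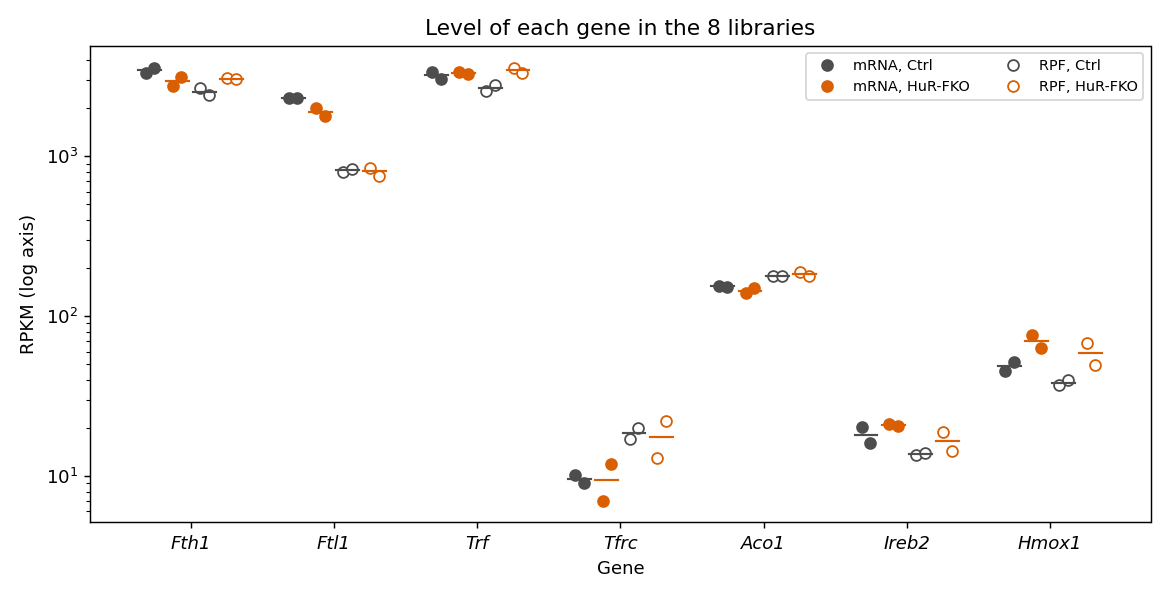
RPKM (log axis) of each of the 7 genes in the 8 libraries, with filled points for mRNA, open points for RPF, grey for Ctrl, orange for HuR-FKO and a bar at the mean of 2 pools. Fth1, Trf and Ftl1 sit far above the other genes, the Ftl1 RPF points lie below its mRNA points in both genotypes, and the Tfrc RPF points lie above its mRNA points.

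The question put to these libraries was whether loss of HuR changes mRNA levels, ribosome footprints or the footprints carried per mRNA (translational efficiency, TE). Fth1 mRNA was 3335 and 3587 RPKM in the Ctrl pools and 2732 and 3154 RPKM in the HuR-FKO pools. Both HuR-FKO pools were below both Ctrl pools. The difference of -0.24 ± 0.12 on the log2(RPKM + 1) scale (SE) did not pass limma's test with Benjamini-Hochberg adjustment over all genes (adjusted p = 0.229). In RPF it measured 2671 and 2410 RPKM in Ctrl against 3088 and 3036 RPKM in HuR-FKO. Here both HuR-FKO pools were the higher, the opposite of the mRNA, again without a call (log2 difference 0.27 ± 0.12, SE, adjusted p = 0.467). Non-overlap with lower mRNA and higher RPF occurred in 190 of 8562 genes (2.22%).

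The RPF to mRNA ratio of Fth1 was 0.801 and 0.672 in the Ctrl pools and 1.13 and 0.963 in the HuR-FKO pools. The genotypes did not overlap. The log2 difference in TE was 0.51 ± 0.16 (SE, 95% interval 0.15 to 0.86), higher than that of 94.1% of all genes. It had an unadjusted limma p of 0.0097 and an adjusted p of 0.584, so it was not called. With a trend in transcript length and coding G+C content taken out, an alternative chosen after seeing the data, it was 0.38 (adjusted p = 0.566). Over 13 alternatives it stayed positive, from 0.38 to 0.63, and never passed (adjusted p 0.394 to 0.87).

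Ftl1 mRNA was 2320 and 2315 RPKM in Ctrl against 2006 and 1778 RPKM in HuR-FKO. The HuR-FKO pools were both lower, with a log2 difference of -0.29 ± 0.12 (SE, limma, adjusted p = 0.126). Footprints of Ftl1 were at 798 and 835 RPKM in Ctrl against 849 and 757 RPKM in HuR-FKO, and these overlapped (log2 difference -0.03 ± 0.13, SE, adjusted p = 0.964). The Ftl1 mRNA difference was called with the replicate number as a block (adjusted p = 0.0223) and shrank to -0.04 after detrending for length and G+C (adjusted p = 0.822). Both ferritin transcripts are short, 929 bases for Fth1 and 968 for Ftl1 against a median of 2981, and across 8245 genes the mRNA difference increased with transcript length (Spearman's rho 0.379, a description over genes that share the same libraries). The detrending removed length and G+C together, so the part of either alone in the ferritin values was not tested. Under it the Fth1 mRNA difference was -0.13 (limma, adjusted p = 0.394).

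The ferritin chains differed from each other in ribosome load. Relative to the median gene of each pool, the log2 RPF to mRNA ratio of Ftl1 was -1.27 and -1.17 in Ctrl against -0.89 and -0.89 in HuR-FKO. All 4 pools were well below the median gene. Its TE level was -1.23 ± 0.11 in Ctrl against -0.89 ± 0.11 in HuR-FKO (SE, limma, adjusted p = 2.43e-05 and 0.000129), and this held under all 12 alternatives in each genotype. In Ctrl, 54.1% of genes differed from the median gene by this test, and 56.6% did in HuR-FKO, so a call alone is common. Fth1 was at -0.06 and -0.28 in the Ctrl pools and 0.52 and 0.29 in the HuR-FKO pools. Its TE level was not called in Ctrl (-0.17 ± 0.11, SE, limma, adjusted p = 0.21), but was called below the median gene there after detrending for length and G+C (-0.55, adjusted p = 0.000533). It was called above the median gene in HuR-FKO (0.40 ± 0.11, SE, limma, adjusted p = 0.012). That HuR-FKO call was lost, and the sign turned, after detrending for length and G+C (-0.12, adjusted p = 0.272), and it was lost without HuR-FKO pool 1 (0.29, adjusted p = 0.21) and without the variance trend (adjusted p = 0.0526).

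**Figure D2:**
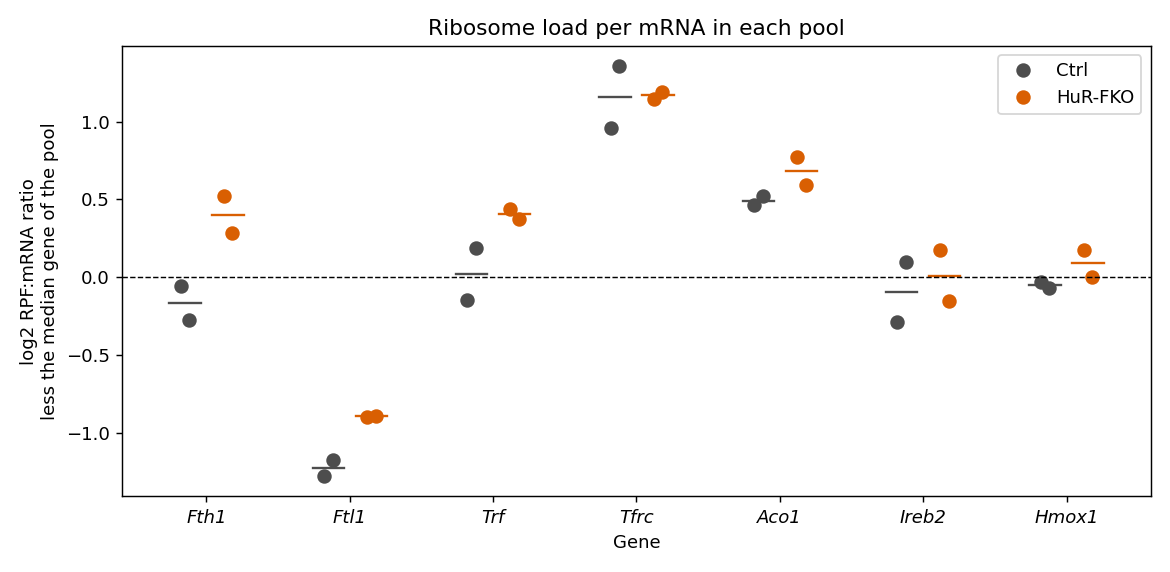
log2 RPF to mRNA ratio of each gene less the median gene of the same pool (y axis), with a point for each pool, grey for Ctrl and orange for HuR-FKO, and a bar at the mean of 2 pools. Ftl1 lies between -1.27 and -0.89 and Tfrc between 0.96 and 1.35, while the Fth1 pools of the genotypes do not overlap.

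A ratio of the chains within a library does not depend on the scaling between libraries. Ftl1 divided by Fth1 was 0.696 and 0.645 in the Ctrl mRNA libraries and 0.734 and 0.564 in the HuR-FKO mRNA libraries. In RPF it was 0.299 and 0.346 in Ctrl against 0.275 and 0.249 in HuR-FKO. The mRNA ratios of the genotypes overlapped (exact permutation test, two-sided, p = 1). The RPF ratios did not (log2 difference -0.30), but p = 0.333 is the smallest that 2 libraries against 2 can give in this exact permutation test. The ratio was lower in RPF than in mRNA in 4 of 4 pools, by -1.18 ± 0.21 on the log2 scale (SD, n = 4), and the exact paired permutation p of 0.125 is again the smallest possible. This last comparison was chosen after the values were seen. GENCODE M21 holds 5 genes named as Fth or Ftl pseudogenes, and copies under other names were not counted. How reads shared with such copies were assigned is not given in the sources used here, so the ferritin levels are uncertain to that extent.

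**Figure D3:**
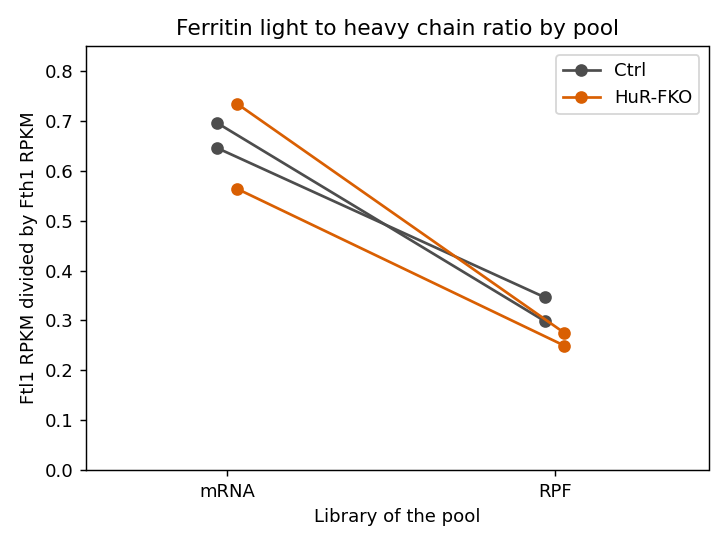
Ftl1 RPKM divided by Fth1 RPKM (y axis, from 0) in the mRNA and the RPF library of each pool, joined by a line, grey for Ctrl and orange for HuR-FKO. The 4 mRNA values lie between 0.564 and 0.734 and the 4 RPF values between 0.249 and 0.346.

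The genes with the motif in the 5′ UTR lay on both sides of the median gene in ribosome load. Of the 13 genes, 4 had a TE level below the median gene in Ctrl, among them both ferritins, and Ftl1 was the second lowest. Slc40a1, with its stem-loop shown above, had a TE level of 1.32 in Ctrl against 1.51 in HuR-FKO (limma, adjusted p = 0.00043 and 0.000172). Alas2, the erythroid enzyme of haem synthesis, had 1.36 ± 0.48 and 1.55 ± 0.48 (SE, limma, adjusted p = 0.0372 and 0.021). Its Ctrl RPF pools were far apart, at 108 and 37.8 RPKM. Neither Slc40a1 nor Alas2 was called between genotypes in mRNA, RPF or TE. The median TE level of the 13 genes in Ctrl was 0.60, against 0 for all genes by construction.

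For iron uptake, transferrin mRNA was abundant and the receptor mRNA scarce. By mean RPF level in Ctrl, Trf ranked 35 and Tfrc 4975 of 8562 genes, so the receptor was not scarce in footprints. Trf mRNA was 3385 and 3024 RPKM in Ctrl against 3348 and 3255 RPKM in HuR-FKO, and these overlapped (log2 difference 0.05 ± 0.12, SE, limma, adjusted p = 0.825). Its footprints were at 2543 and 2801 RPKM in Ctrl against 3570 and 3339 RPKM in HuR-FKO. Both HuR-FKO pools were above both Ctrl pools, by a log2 difference of 0.37 ± 0.12 (SE, limma, adjusted p = 0.321). The Trf RPF difference was called when the recovered reads were tested with voom (0.38, adjusted p = 0.0208), and over 14 alternatives it ranged from 0.30 to 0.44. Its RPF to mRNA ratio was 0.751 and 0.926 in Ctrl against 1.066 and 1.026 in HuR-FKO, a TE difference of 0.33 ± 0.15 (SE, limma, adjusted p = 0.631). Its TE level was 0.01 ± 0.11 in Ctrl, and 0.41 ± 0.11 in HuR-FKO was called (SE, limma, adjusted p = 0.00927) but lost without either HuR-FKO pool (adjusted p = 0.121 and 0.0809). Trf is also made in large amount by hepatocytes, and of 5 hepatocyte markers only Alb was in the table, at 1.652 to 6.998 RPKM in mRNA. In RPF, Alb measured 9.02 and 12.9 RPKM in Ctrl against 17.5 and 51.5 RPKM in HuR-FKO, without overlap and in the direction of Trf (log2 difference 1.40 ± 0.46, SE, limma, adjusted p = 0.331), whereas in mRNA it fell by 1.10 on the log2 scale (adjusted p = 0.0263). The part of hepatocyte RNA in the Trf result was not tested.

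Tfrc mRNA was 10.2 and 9.04 RPKM in Ctrl against 7.02 and 11.8 RPKM in HuR-FKO, so that the HuR-FKO pools lay on either side of both Ctrl pools. The Tfrc RPF level was 17.03 and 19.90 RPKM in Ctrl against 13.0 and 22.2 RPKM in HuR-FKO, and here too the HuR-FKO pools lay on either side of both Ctrl pools. The log2 differences were -0.06 ± 0.22 in mRNA and -0.11 ± 0.32 in RPF (SE, limma, adjusted p = 0.872 and 0.932). These rest on 84 to 167 mRNA reads and 27 to 45 RPF reads a library, and the 95% interval of the mRNA difference, -0.54 to 0.42, leaves room for sizeable changes in either direction. Per mRNA, however, Tfrc carried many footprints. Its ratio was 1.68 and 2.20 in Ctrl against 1.85 and 1.87 in HuR-FKO, and its TE level was 1.15 ± 0.30 in Ctrl against 1.17 ± 0.30 in HuR-FKO (SE, limma, adjusted p = 0.00918 and 0.008). The Ctrl call was lost without either Ctrl pool (adjusted p = 0.0697 without pool 1 and 0.163 without pool 2).

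The mRNAs of the iron regulatory proteins differed in level, Aco1 far above Ireb2, and neither was called between genotypes. Protein was not measured. Aco1 mRNA was 154 and 152 RPKM in Ctrl against 140 and 149 RPKM in HuR-FKO, a log2 difference of -0.09 ± 0.11 (SE, limma, adjusted p = 0.633). Its RPF level was 177 and 179 RPKM in Ctrl against 189 and 178 RPKM in HuR-FKO, which overlap. The 95% interval of the Aco1 mRNA difference was -0.33 to 0.16. Its TE level was 0.48 ± 0.11 in Ctrl against 0.69 ± 0.11 in HuR-FKO (SE, limma, adjusted p = 0.00583 and 0.000779), and the Ctrl call was lost without either Ctrl pool (adjusted p = 0.0545 and 0.0766). Ireb2 mRNA was 20.2 and 16.1 RPKM in Ctrl against 21.2 and 20.5 RPKM in HuR-FKO. In RPF, Ireb2 was at 13.5 and 13.9 RPKM in Ctrl against 18.7 and 14.3 RPKM in HuR-FKO. Both HuR-FKO pools were the higher in either kind of library, by 0.20 ± 0.14 in mRNA and 0.24 ± 0.28 in RPF on the log2 scale (SE, limma, adjusted p = 0.378 and 0.807). The RPF values of Ireb2 rest on 22 to 71 reads a library.

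Hmox1 was the one member called between genotypes. Its mRNA was 45.6 and 51.4 RPKM in Ctrl against 76.0 and 63.1 RPKM in HuR-FKO. Both HuR-FKO pools were above both Ctrl pools, by a log2 difference of 0.51 ± 0.13 (SE, limma, adjusted p = 0.0338). The Hmox1 RPF level was 36.9 and 39.7 RPKM in Ctrl against 67.5 and 49.8 RPKM in HuR-FKO. The RPF difference was in the same direction and of similar size, 0.59 ± 0.23 (SE, limma, adjusted p = 0.412), on 23 to 77 reads a library. Its ratios of RPF to mRNA, 0.811 and 0.773 in Ctrl against 0.889 and 0.789 in HuR-FKO, overlapped (TE difference 0.08 ± 0.26, SE, limma, adjusted p = 0.956).

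The Hmox1 mRNA call kept its direction in 14 of 14 alternatives and was lost in 5. It was lost without Ctrl pool 1 (0.42, adjusted p = 0.0565), without HuR-FKO pool 1 (0.38, adjusted p = 0.22), without HuR-FKO pool 2 (0.64, adjusted p = 0.0861), with a variance shared over all 8 libraries (adjusted p = 0.208) and without the variance trend (adjusted p = 0.055). Macrophages clear haem and express Hmox1. Of 8 macrophage markers measured, 4 were called higher in HuR-FKO mRNA (Cd68, Cd163, Cd14 and Itgam) and none lower, against 7.50% and 6.54% of all genes. Their summed mRNA level was 1137 to 1246 RPKM in Ctrl against 1433 to 1495 RPKM in HuR-FKO, and their summed RPF level was 1981 to 2498 RPKM in Ctrl against 2294 to 2483 RPKM in HuR-FKO. Their part in the Hmox1 result was not tested, and in bulk tissue more cells of a type and more RNA per cell cannot be told apart.

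**Figure D4:**
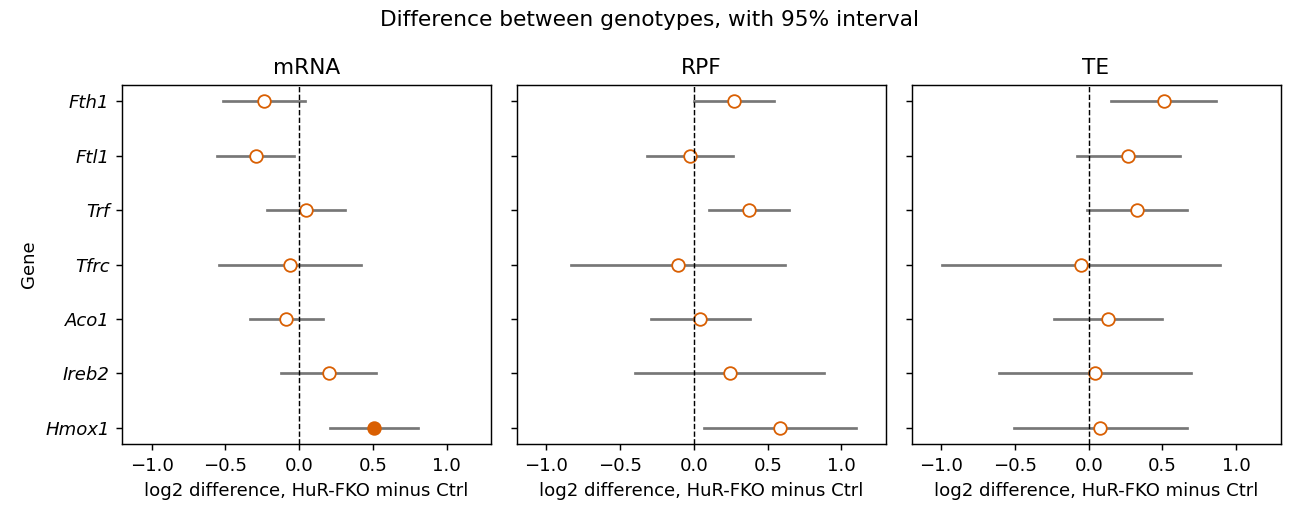
log2 difference of HuR-FKO minus Ctrl (x axis) for the 7 genes in mRNA, RPF and TE, with 95% intervals and a filled point where the adjusted p of limma is below the threshold. The Hmox1 mRNA point at 0.51 is the one filled point, and the Fth1 points lie at -0.24 in mRNA, 0.27 in RPF and 0.51 in TE.

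Over the 7 genes, 1 was called in mRNA, where 14.0% of all genes were called (7.50% higher and 6.54% lower). None was called in RPF (limma, 0.444% of all genes called) or in TE (limma, 0.0117%, a single gene). Without adjustment, 2 of 7 had p under 0.05 in mRNA against 30.6% of all genes, 3 of 7 in RPF against 10.7% and 1 of 7 in TE against 8.04%. With voom on the recovered reads, 1 of 7 was called in mRNA (17.3% of all genes), 1 in RPF (1.96%) and 0 in TE (0.0234%). The groups did not overlap in mRNA for 5 members, 3 lower and 2 higher in HuR-FKO, where 27.8% of all genes were lower and 32.5% higher. In RPF 4 members were higher and 0 lower without overlap (17.7% and 24.1% of all genes), and in the ratio of RPF to mRNA again 4 were higher and 0 lower (14.5% and 24.3%). Against the median gene, 2 members were called higher and 1 lower in TE level in Ctrl, and 4 higher and 1 lower in HuR-FKO. Hmox1 and Ireb2 were called in neither genotype. The median log2 difference of the 7 was -0.06 in mRNA, 0.24 in RPF and 0.13 in TE, beside 0.02, -0.05 and -0.07 over all genes.

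The rest of the iron pathway was read from 7 lists, of which 63 of 87 genes were in the table. In mRNA 3 of the 63 were called higher and 4 lower, in RPF 2 higher and 0 lower, and in TE none (limma). Over all genes, 7.50% were called higher and 6.54% lower in mRNA. In RPF these shares were 0.327% and 0.117%, and in TE 0.0117% were called. The count of each list below is to be read beside these shares. The other mRNAs known to carry an IRE had no call among 5 measured, and the regulators of IRP2 turnover (the ubiquitin ligase subunit Fbxl5 and its partners) had none of 4. The list of BACH1, NRF2 and related genes other than the members had none of 7. The last group had a median mRNA difference of 0.21, and its 2 most abundant genes were Nfe2l2, which encodes NRF2, at 65.6 RPKM in Ctrl against 79.2 RPKM in HuR-FKO, and Gsr, glutathione reductase, at 53.8 and 50.2 RPKM.

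Among the genes of ferritin loading and turnover, 1 of 4 was called. Ncoa4, the receptor that delivers ferritin to autophagy, had mRNA levels of 135 and 113 RPKM in Ctrl against 183 and 194 RPKM in HuR-FKO. It rose by a log2 difference of 0.60 ± 0.12 (SE, limma, adjusted p = 0.0135), and the call was lost without either HuR-FKO pool (adjusted p = 0.0931 and 0.131). Its RPF difference of 0.42 was not called (adjusted p = 0.387). The iron chaperones Pcbp1 and Pcbp2, the most abundant of this list, measured 227 and 231 RPKM in Ctrl mRNA against 190 and 224 RPKM in HuR-FKO mRNA, without a call.

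Of 10 iron transport genes in the table, 1 rose and 1 fell in mRNA. Slc39a14, the importer ZIP14 of non-transferrin iron, zinc and manganese, had mRNA levels of 6.61 and 8.78 RPKM in Ctrl against 21.6 and 22.5 RPKM in HuR-FKO. It rose by 1.42 ± 0.16 on the log2 scale (SE, limma, adjusted p = 0.000606), a call that held in 14 of 14 alternatives. Its RPF levels, 4.72 and 6.58 RPKM in Ctrl against 7.26 and 6.40 RPKM in HuR-FKO, overlapped. They were below those of every member, and the log2 difference of 0.25 ± 0.30 was imprecise (SE, limma, adjusted p = 0.821). Its 95% interval, -0.44 to 0.93, does not show that footprints failed to rise. The log2 TE difference of Slc39a14 was -1.17 ± 0.32 (SE, limma, adjusted p = 0.573). Hfe, the haemochromatosis protein that binds the transferrin receptor, fell in mRNA by 0.60 on the log2 scale (limma, adjusted p = 0.0162), from 108 ± 15.0 to 70.8 ± 4.47 RPKM (SD, n = 2), and the call was lost without either HuR-FKO pool (adjusted p = 0.136 and 0.0983) and in the shared fit over all 8 libraries (adjusted p = 0.128). The ferrireductase Steap4, the most abundant of this list, had 408 RPKM in Ctrl against 477 RPKM in HuR-FKO and was not called.

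Genes of mitochondrial iron and iron-sulfur cluster assembly had 3 lower and 0 higher calls among 19 measured, with a median mRNA difference of -0.21. Bola3 and Glrx5, which act in cluster transfer, and Fdxr, the ferredoxin reductase, fell in mRNA by 0.47, 0.45 and 0.75 on the log2 scale (limma, adjusted p = 0.0236, 0.0471 and 0.0391). In RPF none of these was called, with log2 differences of -0.46, 0.25 and -0.015 (limma, adjusted p = 0.723, 0.664 and 0.993). Glrx5 was higher in both HuR-FKO pools in RPF (17.7% of all genes were higher without overlap), whereas Bola3 and Fdxr overlapped. The median RPF difference of this list was -0.04, beside -0.05 over all genes. The Glrx5 call held in 7 of 14 alternatives, Bola3 in 10 and Fdxr in 11. The mRNA differences were -0.25 for Glrx5 and -0.54 for Fdxr after detrending for length and G+C, neither of them called (limma, adjusted p = 0.1 and 0.112). Without HuR-FKO pool 2 the Fdxr difference was -0.42 and the Glrx5 difference -0.33, neither called.

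Among 14 genes of haem synthesis, transport and breakdown, Alas1 was higher in both kinds of library. Alas1 encodes the rate-limiting enzyme of haem synthesis outside red cells. Its mRNA was 174 and 153 RPKM in Ctrl against 350 and 323 RPKM in HuR-FKO, and it rose by 1.04 ± 0.12 on the log2 scale (SE, limma, adjusted p = 0.000676), a call that held in 14 of 14 alternatives. Its RPF level was 360 and 294 RPKM in Ctrl against 644 and 734 RPKM in HuR-FKO (log2 difference 1.08 ± 0.15, SE, limma, adjusted p = 0.0289, called in 11 of 14 alternatives). Hp, which encodes haptoglobin, the plasma protein that binds free haemoglobin, rose in RPF, from 3869 and 3778 RPKM in Ctrl to 7212 and 6625 RPKM in HuR-FKO (log2 difference 0.85 ± 0.11, SE, limma, adjusted p = 0.0254), while its mRNA difference of 0.42 was not called (adjusted p = 0.0577). The Hp call in RPF was lost without either HuR-FKO pool (adjusted p = 0.146 and 0.124) and without the variance trend (adjusted p = 0.333). Hmox2, the constitutive haem oxygenase, was at 56.3 and 61.3 RPKM in Ctrl mRNA against 60.2 and 68.3 RPKM in HuR-FKO mRNA, which overlap.

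**Figure D5:**
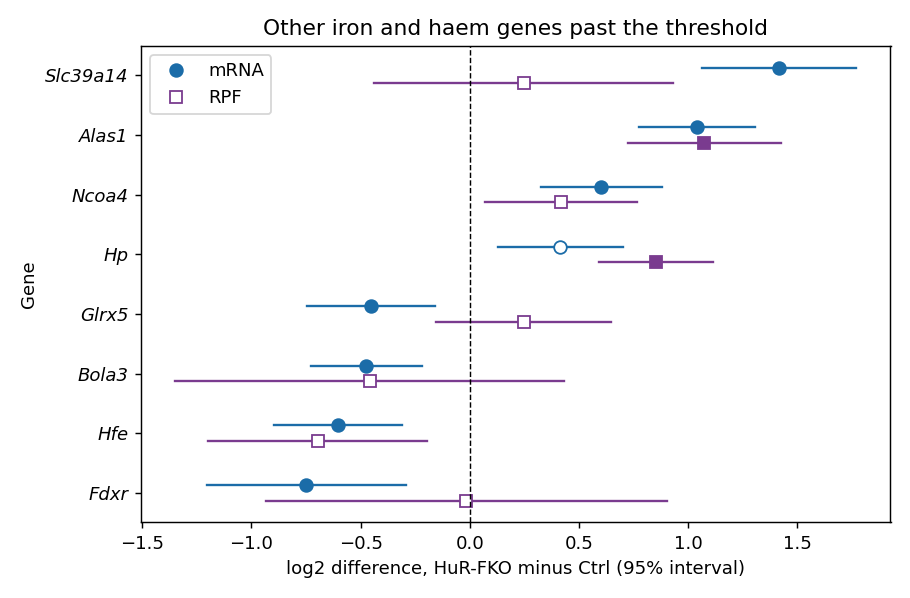
log2 difference of HuR-FKO minus Ctrl (x axis) in mRNA (circles) and RPF (squares) for the 8 listed iron and haem genes past the threshold in either, with 95% intervals and filled symbols where called by limma. Alas1 is filled in both, at 1.04 and 1.08. Slc39a14 is filled at 1.42 in mRNA and open at 0.25 in RPF, with a wide RPF interval of -0.44 to 0.93.

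Red blood cell RNA moved with genotype beside the haem genes. Of 6 red blood cell markers measured of 9, 5 were called lower in mRNA (all of them globin genes) and none higher, against 6.54% and 7.50% of all genes. Hba-a1 and Hba-a2 had nearly equal levels (2549 and 2518 RPKM in Ctrl mRNA). Hbb-bs, Hbb-bt and Hbb-b1 had nearly equal mRNA differences (-1.07, -1.06 and -1.07 on the log2 scale). How reads shared between globin genes were assigned is not given, so the 5 calls may not be separate measurements and sums may count shared reads repeatedly. The summed mRNA level of the 6 was 8331 to 12267 RPKM in Ctrl against 3605 to 5984 RPKM in HuR-FKO. Their summed RPF level was 24589 to 47182 RPKM in Ctrl against 18596 to 23727 RPKM in HuR-FKO, with no marker called in RPF. Alas2, the remaining marker of this list and erythroid in its expression, measured 35.9 and 24.3 RPKM in Ctrl against 12.1 and 26.7 RPKM in HuR-FKO, without a call. The part of blood in the haem gene results was not tested.

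The genes whose log2(RPKM + 1) values over the 8 libraries were most like each member were as follows, as a description in which the difference between mRNA and RPF libraries is shared by all genes. For Ftl1 they were Oaz1 and Sipa1 (Pearson's r of 0.998 each), for Aco1 Ces1d and Cbs (0.990 and 0.989), and for Tfrc Aldh1a1 and Suclg2 (0.982 and 0.966). For Ireb2 they were B3galt2 and Osgin2 (0.981 and 0.959), for Trf Trmt10c and Fam35a (0.969 and 0.952), for Hmox1 Cyp2d22 and Aqp7 (0.955 and 0.952), and for Fth1 Rpl27 and Ppp2r4 (0.948 and 0.946). Oaz1 measured 714 and 723 RPKM in Ctrl mRNA and 218 and 252 RPKM in Ctrl RPF, so it was lower in RPF than in mRNA, as Ftl1 was.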

How the data were processed

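Tissue pools of eWAT were split for mRNA-seq and ribosome profiling. The deposited table gives RPKM values, made by the authors by counting reads on coding sequences and scaling by length and by the library total. The submitters' processing notes name cutadapt 1.8.3, TopHat2 2.0.9 and Bowtie 1.0.0, whereas no genome build is given for the table in the sources used here. It also holds the authors' group means, ratios and efficiencies, which were not used. The labels of the RPF libraries carry a tag for a HuR antibody, whereas the methods describe no antibody step for them. These libraries were read as ribosome footprints, after their titles and the methods. All RPF and TE values rest on that reading, which was not tested.

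log2(RPKM + 1) was fitted with limma 3.58.1 in R 4.3.3 (eBayes with a variance trend), mRNA and RPF each on their 4 libraries and TE as the interaction of genotype and assay over 8. Genes had a mean above 1 RPKM, p-values were adjusted by Benjamini-Hochberg over 8562 genes, and the threshold was 0.05. The TE level is the log2 RPF to mRNA ratio in a genotype less that of the median gene. Ratios of 2 genes were compared by exact permutation. Replicates are pools of separate mice per the labels, and p-values measure the spread between pools. Whole reads were recovered from the RPKM steps with GENCODE M21 coding lengths (98.4% of 8245 genes whole within 0.001 reads in all 8 libraries). An mRNA and an RPF library share a pool by the labels, and their deviations correlated at 0.05 in each genotype. Scripts were tested on simulated data. Alternatives were another pseudocount (0.1), no filter or a filter of 5 RPKM, 2 scalings, a replicate block, no variance trend, a shared fit, voom on reads and each pool left out. A trend in length and G+C (spline, 4 degrees of freedom) was added after seeing the data.

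The members, gene lists and tests were chosen with earlier results of these data known. Named genes are Elavl1, the members, the listed genes past the threshold (at most 4 a list and comparison), the 2 most abundant of a list as values, and the 2 genes most like each member. Some genes of the pathway are not reported here.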

Additional observations from a re-analysis of the deposited data

How the results depend on the processing

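Of 455 values of the 7 genes under alternatives, 413 kept their direction and side of the threshold, 13 lost a call, 3 gained one and 26 changed sign. The cause was not tested. The count of genes called in mRNA (1202) was 2156 with the replicate block and 254 in the shared fit, and 226 to 1642 with a pool left out. In RPF (38 called) it was 140 with the block, 4 without the variance trend, 202 in the shared fit, 168 with voom, 88 after detrending for length and G+C, and 15 to 107 with a pool left out. In TE (1 called) it was 2 with voom and 0 to 0 with a pool left out, and the TE level calls were 2946 to 4553 in Ctrl and 3314 to 4662 in HuR-FKO with a pool left out. Same-numbered Ctrl and HuR-FKO libraries share only a number: their deviations correlated at 0.15 in mRNA and -0.00 in RPF, and the block added the Ftl1 mRNA call (-0.29, adjusted p = 0.0223) and changed no other call of the 7 genes.

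The calls gained were Ftl1 mRNA with the block, Trf RPF with voom and the Ctrl TE level of Fth1 after detrending (-0.55, adjusted p = 0.000533). Signs turned as follows. After detrending for length and G+C these were Ireb2 mRNA (-0.0103), Ftl1 RPF (0.0363), Tfrc TE (0.0932), Hmox1 TE (-0.0345), the Ctrl TE levels of Trf (-0.0523) and Hmox1 (0.18), and the HuR-FKO TE levels of Fth1 (-0.12) and Ireb2 (-0.0257). Quantile normalization turned Trf mRNA (-0.0689), Tfrc TE (0.12) and the Ctrl TE level of Trf (-0.0665), and median ratio scaling turned Ftl1 RPF (0.0164) and Tfrc TE (0.0113). With a pool left out, Tfrc ranged from -0.40 to 0.28 in mRNA, -0.47 to 0.25 in RPF and -0.23 to 0.13 in TE. Trf mRNA ranged from -0.036 to 0.13, Ftl1 RPF from -0.11 to 0.0575, Ireb2 TE from -0.13 to 0.22 and Hmox1 TE from -0.0063 to 0.16. The Ctrl TE levels of Trf and Ireb2 ranged from -0.15 to 0.19 and from -0.29 to 0.10, the HuR-FKO TE level of Ireb2 from -0.15 to 0.17, and the log2 Ftl1 to Fth1 ratio difference from -0.25 to 0.13 in mRNA and -0.40 to -0.19 in RPF. Among the members, depth limits the RPF values of Tfrc, Ireb2 and Hmox1, with 22 to 77 reads a library. Slc39a14 had lower RPF levels than any member, at 4.72 to 7.26 RPKM. With 2 pools a genotype, a value without a call does not show that the genotypes are alike.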
